A study of Mus musculus with 4 samples.

Results

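The genes described here are those of the synaptic vesicle and of the SNARE machinery that fuses vesicles with membranes. They were chosen by name alone: a probe set was a member when the array annotation gave it exactly 1 gene symbol that begins as a synaptotagmin (Syt), syntaxin (Stx), syntaxin-binding protein (Stxbp), VAMP, SNAP, synapsin, synaptophysin, synaptogyrin, complexin, SV2, NSF, alpha, beta or gamma SNAP (Nap), dynamin, Rab3, RIM, Munc13 (Unc13) or AP-2 subunit does. The rule took 74 probe sets of 57 genes, out of 12422 probe sets and 8251 singly named genes. The RNA was that of the dentate gyrus, a field of the hippocampus, from C57BL/6J mice, young males of the handled control group; the labels name no transgene or drug. There were 4 single-channel arrays, 1 for each of 1, 2, 4 and 6 h, the hour being counted from the last shock given to other mice of the same study, which are not analysed here. How many mice stand behind each RNA is not stated, so the spread between arrays may be technical in part, and p-values measure only that spread. Values are the deposited intensities on a linear scale. The number of arrays limits the precision, and an intensity of 1 probe set cannot be ranked against that of another.

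Synaptic transmission rests on a cycle of vesicles at the nerve terminal. SNARE proteins on the vesicle (VAMPs) and on the target membrane (syntaxins and SNAP-25 relatives) zip together and drive fusion. Synaptotagmins sense the calcium that triggers it, complexins and Munc18 proteins control the complex, and NSF with its SNAP adaptors takes the spent complex apart, after which dynamin and the AP-2 clathrin adaptor help to retrieve the membrane. Dentate granule cells release glutamate from large mossy fibre terminals in area CA3, while the messenger RNAs of these proteins lie mostly in the cell bodies that were dissected. Other SNAREs of the same families serve the Golgi, endosomes and lysosomes of every cell type.

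A set of mainly neuronal members, Vamp1, Syt11, Rab3b, Cplx1 and Syp among them, was lower in the 1 h array than in the 2, 4 and 6 h arrays. To compare arrays, intensities under a floor of 16.4 (the 10th percentile) were raised to it, log2 was taken, and a probe set was kept when its mean log2 value was at or above the 40th percentile, 6.66. That filter kept 57 of the 74 member probe sets, of 48 genes, and 7453 probe sets in all. Among the 57, 12 lay at least 2-fold below the mean of the other 3 arrays at 1 h and 2 lay at least 2-fold above it, where 5.29% and 1.8% of all kept probe sets did so. The 12 are 21.1% of the kept members. Of these, Vamp1, Rab3b and Syt7 read under the intensity that corresponds to the filter, 101, at 1 h and were kept through later arrays. Ap2b1, 1 of the 2 higher, was kept through its 1 h array. Without the 2 h array 9 remained at or past 2-fold, since the log2 differences of Syt1, Syt7 and Rab3a then came to -0.85, -0.85 and -0.93. There is 1 array per hour, so no test of these differences was made, and in bulk tissue fewer cells of a type cannot be told apart from less RNA per cell.

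The 1 h array also stood apart in other ways, and their part in the members' values was not tested. Of the 7453 kept probe sets, 528 lay at least 2-fold from the mean of the other arrays at 1 h, against 206 to 253 at the later hours. The control transcript Gapdh, a glycolytic enzyme with probe sets at both ends, gave a ratio of 3' over 5' signal of 4.88 at 1 h against 1.13 to 1.33 later, and beta-actin one of 2.51 against 1.83 to 2.20. Some markers of other cells differed at 1 h as well. Of all kept probe sets, 45.4% were below the mean of the other arrays at 1 h. In the oligodendrocyte list (Mbp, Mobp, Mag and Mog among the kept), 8 of 9 kept probe sets were below that mean at 1 h. The 4 arrays summed in order to 12976, 20069, 13261 and 13599, so in the sum the 2 h array stood apart. Of the 8, 3 were at least 2-fold lower at 1 h, all of them probe sets of Mobp. The brightest probe set of Mobp, at 6090.8, 6906.9, 4427.6 and 4296.5 in order, was the 1 above that mean. In the interneuron list, which holds Gad1, Sst and Pvalb, 3 of 5 were below it, none of them 2-fold, and the sum stayed between 14071 and 14454. The granule cell list had 3 of 3 kept probe sets below it (sum 3074.5 to 3716), astrocytes 5 of 8 (22139 to 24774), microglia 5 of 7 (5180.1 to 6724), CA pyramidal cells 2 of 3 (5454 to 6862), endothelium 2 of 5 (744.5 to 1351) and choroid plexus 2 of 3 (569.9 to 3466). The choroid plexus sums were 569.9, 616.1, 1570.5 and 3466 in order, close at 1 h and 2 h and highest at 6 h. Those of endothelium were 1351, 1287, 1110.5 and 744.5, highest at 1 h and lowest at 6 h. In the granule cell, CA pyramidal, astrocyte and choroid plexus lists 1 marker each was at least 2-fold lower at 1 h (Prox1, Nnat, Aqp4 and Ttr). Another probe set of Aqp4 was 1.44-fold lower. In the endothelial list 1 probe set of Flt1 was 3.73-fold higher at 1 h, and another was 1.33-fold higher. No measured marker was under the floor in all 4 arrays. Among granule cell genes, Calb1 (calbindin) measured 2196 ± 178 (SD, n = 4) and Prox1, the granule cell transcription factor, 184 on average, lowest at 1 h (71.6).

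**Figure D1:**
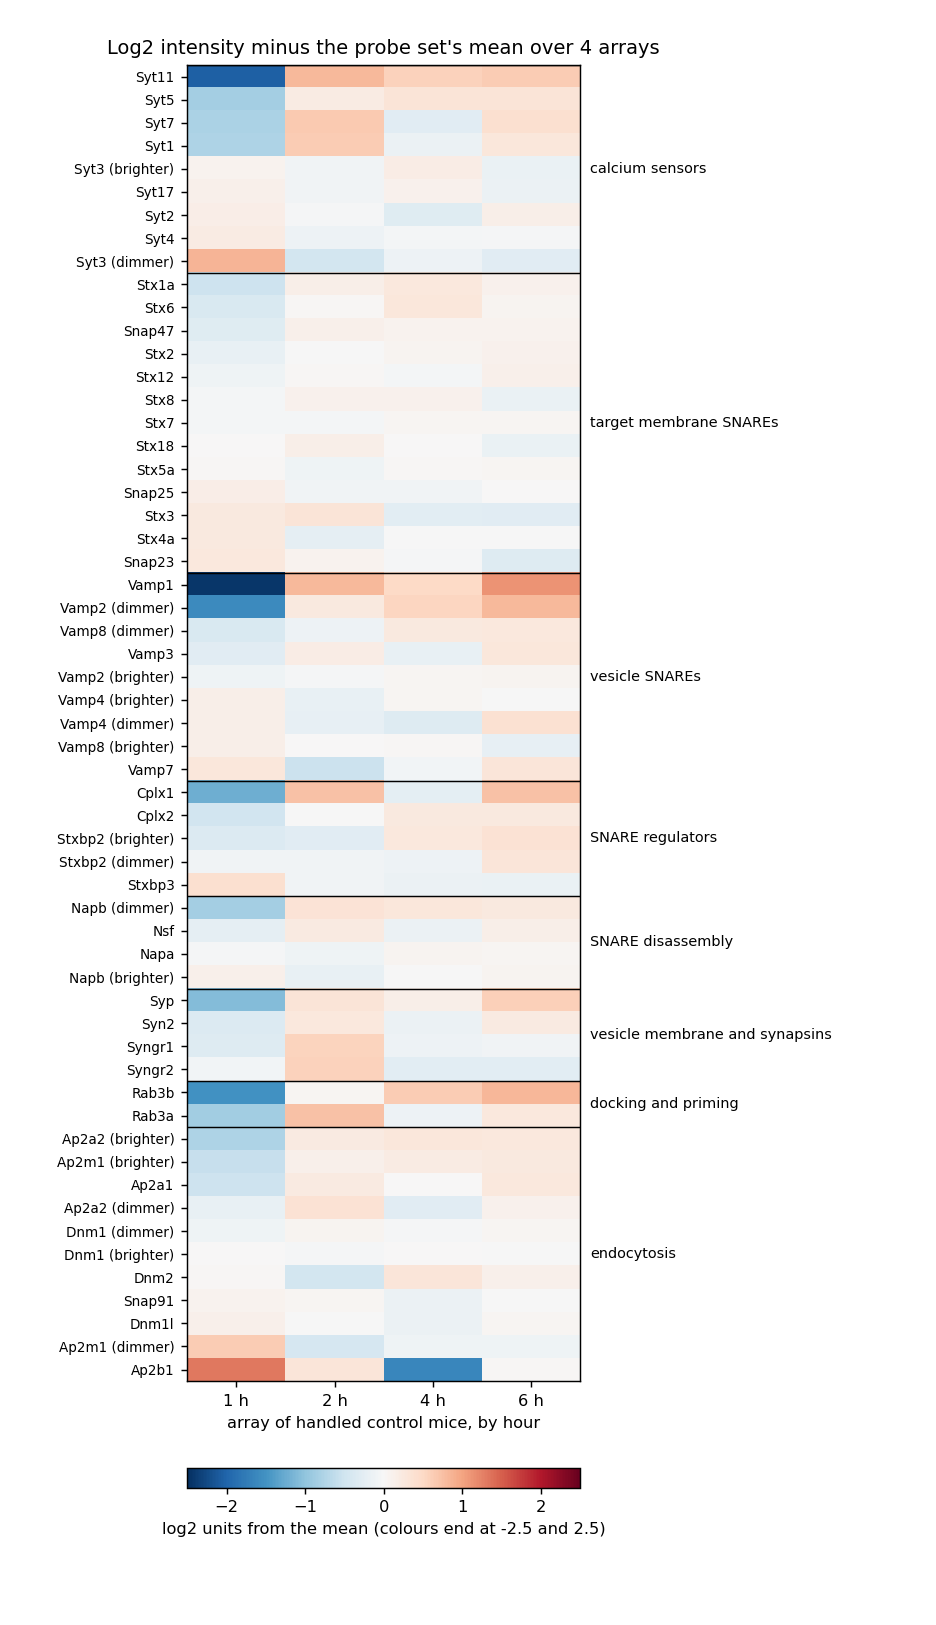
Heat map of the 57 kept member probe sets (rows, grouped by role) in the 4 arrays (columns, by hour). Colour gives the log2 intensity minus that probe set's mean over the 4 arrays, blue for lower and red for higher. Strong blue cells stand in the 1 h column, at Vamp1 (26.7 at 1 h), Syt11 (345) and the dimmer probe set of Vamp2 (144), and in the 4 h column at Ap2b1 (38.6), while the rows of syntaxins are pale throughout.

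The calcium sensors divided. Syt11, a synaptotagmin that does not bind calcium in the usual way and is abundant in brain, read 345 at 1 h and 2488, 2112 and 2211 at 2, 4 and 6 h. The later arrays lay within 1.18-fold of each other, and the 1 h value was 6.56-fold below their mean on the log2 scale. Syt1, the fast calcium sensor of synchronous release, read 816 at 1 h and 2165, 1268 and 1707 later, 2.05-fold lower at 1 h. Syt5 read 852 and then 1766, 1926 and 1936, which is 2.20-fold lower at 1 h. Syt7, a sensor of slower, high-affinity release, was dim, at 59.8, 162, 84.7 and 136.5 in the same order. Its 1 h and 4 h values lay under the filter's intensity of 101, so Syt7 was kept through its 2 h and 6 h arrays. In each of these 4 genes the 1 h array was the lowest, and only in Syt11 and Syt5 were the later arrays close together beside the gap.

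Other synaptotagmins did not share that order. Syt4, an activity-regulated member of dense-core vesicles, read 264, 209.5, 222 and 226 at 1, 2, 4 and 6 h, and Syt17 965, 835.5, 952 and 803. Syt2, the fast sensor of hindbrain and some inhibitory terminals, read 397, 347, 285 and 390.4 on its kept probe set. Syt3 read 735, 648, 783 and 615 on the brighter of its probe sets. Its dimmer probe set read 387 at 1 h and 155, 197 and 176 later, and was 1 of the 2 member probe sets at least 2-fold higher at 1 h (2.21-fold). Of the 9 kept synaptotagmin probe sets, 4 were thus at least 2-fold lower at 1 h and 1 was higher, and the median difference was 0.12 log2 units.

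The vesicle SNAREs held a large 1 h difference, that of Vamp1. Vamp1, one of the synaptobrevins, read 26.7 at 1 h and 250.4, 201 and 312 later, 9.38-fold below the later mean. Its 1 h value lay under the intensity that corresponds to the filter, 101, so it was kept through its later arrays, and the size depends on the scale: the log2 difference was -3.23, but -2.27 with log2 of intensity + 32, where that of Syt11 was -2.61. Its other probe set was too dim to be kept and read 106, 30.0, 147 and 79.8, so it did not repeat that order. Vamp2, the main synaptobrevin of forebrain synapses, read 10943, 11447, 12183 and 12371 on its brighter probe set, a range of 1.13-fold. On its dimmer one it read 144, 516, 637 and 769, 4.38-fold lower at 1 h. The pair of probe sets for the same gene therefore gave different pictures of the 1 h array.

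On their kept probe sets, the VAMPs of general traffic varied less than Vamp1 and the dimmer probe set of Vamp2. They varied more than the brighter one of Vamp2. Vamp4, of the trans-Golgi network, read 910.4, 732, 861 and 819 at the 4 hours on its brighter probe set and 781, 614, 569 and 917 on the other. Vamp3 (cellubrevin, of recycling endosomes) read 163, 224, 173 and 240.2. Vamp7, of late endosomes, read 142, 81.2, 112 and 145. Vamp8 (endobrevin) read 944, 864, 873 and 743.5 on one probe set and 137, 162, 211 and 213 on another, highest and lowest at 1 h respectively. No kept probe set of these 4 genes was 2-fold from the other arrays at 1 h, while a dim one of Vamp7, not kept, read 77.4, 36.2, 12 and 60.

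Target membrane SNAREs varied little. Of 13 kept probe sets, 12 stayed within 1.5-fold over the 2, 4 and 6 h arrays, 9 did so over all 4, and none was 2-fold from the others at 1 h. Of all kept probe sets, 74.7% stayed within 1.5-fold over the later arrays and 54.1% over all 4. Snap25, the neuronal target SNARE, read 22175 at 1 h and 18591, 18541 and 19705 later, so the 1 h array was its highest. Stx1a, its syntaxin partner at the plasma membrane, read 706 at 1 h and 1125, 1208 and 1090 later, 1.61-fold lower. Snap47, a relative of Snap25 found on internal membranes, read 4258 and then 5751, 5559 and 5593, which is only 1.32-fold lower but against later values within 1.03-fold of each other. Stx6, a Golgi and endosome syntaxin, read 340.5, 457, 540.5 and 466.

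The remaining syntaxins had no common order across the hours. Stx12, of endosomes, read 2146, 2357, 2241 and 2517, and Stx7, of late endosomes, 1827, 1816, 1960 and 1965. Stx5a, of the Golgi, read 737, 667, 738 and 745, and Stx18, of the endoplasmic reticulum, 403, 439, 403 and 354.5. Stx2 and Stx4a, of the plasma membrane, read 441 to 537 and 493 to 679. Stx8 read 241 to 289, Stx3 on its kept probe set 96.2 to 146, and Snap23, the non-neuronal relative of Snap25, 111 to 168. Of the 13 kept probe sets of target membrane SNAREs, 3 were highest at 1 h (Snap23, Stx4a and Snap25). Lowest at 1 h were 5 (Snap47, Stx1a, Stx2, Stx6 and Stx12). Of all kept probe sets, 35.4% were highest and 30.4% lowest at 1 h.

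Among the proteins that control the SNARE complex, complexins stood low at 1 h. Cplx1, which clamps and then promotes fusion, read 846 at 1 h and 3283, 1674.5 and 3295 later, 3.10-fold lower. Its 4 h value lay between the 1 h value and the others, so the later arrays were not alike either. Cplx2, the complexin of many excitatory neurons, read 1701 and then 2347, 2823 and 2804, 1.56-fold lower. Stxbp2 (Munc18-2, of secretion outside neurons) read 215, 223, 327 and 348 on one probe set and 232, 232.5, 227 and 304 on the other. Stxbp3 (Munc18-3, of general exocytosis) ran the other way, at 369 at 1 h and 263, 250.3 and 248 later, 1.45-fold higher at 1 h.

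The disassembly machinery had 4 kept probe sets, of which 1 was at least 2-fold lower at 1 h. Nsf, the ATPase that separates used SNAREs, read 6837, 9402, 7210 and 8840 (8072 ± 1242, SD, n = 4), and Napa (alpha-SNAP) 5203, 4942, 5591 and 5524. Napb, the brain form, had a brighter probe set at 2373, 1900, 2144 and 2274.5, with its highest value at 1 h. The other, whose suffix marks probes that can match related genes, read 543 at 1 h and 1249.5, 1190.1 and 1163 later, 2.21-fold lower. As for Vamp2, the low 1 h value was on 1 of the 2 probe sets only.

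Vesicle membrane proteins and synapsins were all lower at 1 h than the mean of the other arrays. Syp (synaptophysin), the most abundant membrane protein of the vesicle, read 569 at 1 h and 1503, 1333 and 1810 later, 2.70-fold lower. Syn2, which tethers vesicles to each other, read 1900.3, 2896, 2191 and 2818. Syngr1 read 308, 564, 353 and 361, and Syngr2, its relative outside neurons, 175, 275, 153 and 153. In the latter pair it was the 2 h array that stood high, and only Syp of the 4 was 2-fold lower at 1 h.

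Docking and priming was represented by Rab3 GTPases, which bring vesicles to release sites. Rab3a, the main form in brain, read 283 at 1 h and 856.5, 474 and 617 later, 2.23-fold lower. Rab3b read 82.1, 243, 363.5 and 420 at 1, 2, 4 and 6 h, higher at each later hour, and was 4.06-fold below the mean of the later arrays at 1 h. As for Vamp1, its 1 h value lay under the filter's intensity of 101, so Rab3b was kept through its later arrays. A second probe set of Rab3a was too dim to be kept, at 38.9 or less in each array. Unc13b, a Munc13 priming factor, was too dim as well, with 7.3 at 1 h, under the floor, and 70.2, 84.0 and 94.8 later. No symbol of the RIM or SV2 families was among the 57 genes.

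In the endocytic group Dnm1 was nearly level and the AP-2 subunits were not. Dnm1, the neuronal dynamin that cuts vesicles from the membrane, read 24263, 23538, 24080 and 23908 on one probe set, a range of 1.03-fold, and 17656, 19905, 18534 and 19638 on the other. Dnm2, the form of all cells, read 336, 239, 402 and 355 on its kept probe set, and Dnm1l, the dynamin of mitochondrial fission, 772, 704, 641 and 733. Snap91 (AP180), a clathrin coat protein of nerve terminals and no SNARE, which the name rule takes along, read 1283, 1257, 1099 and 1209.8.

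The AP-2 complex links cargo to clathrin, and its subunits differed in direction. Ap2a2 read 1969 at 1 h and 3930.1, 4099.8 and 4045 later on its brighter probe set, 2.04-fold lower with later values within 1.04-fold, and 530.2, 775, 497 and 647 on the dimmer one. Ap2m1, the cargo-binding subunit, read 4371 and then 7045, 7514 and 7630 on the brighter probe set, 1.69-fold lower. The dimmer one read 509 at 1 h and 244, 304 and 302 later, 1.81-fold higher. Ap2a1 read 357, 596, 516 and 613. Ap2b1 read 298, 147, 38.6 and 122.7, 3.36-fold above the mean of the other arrays at 1 h, and it was the only kept member that spread by over 2-fold within the later arrays (3.81-fold).

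**Figure D2:**
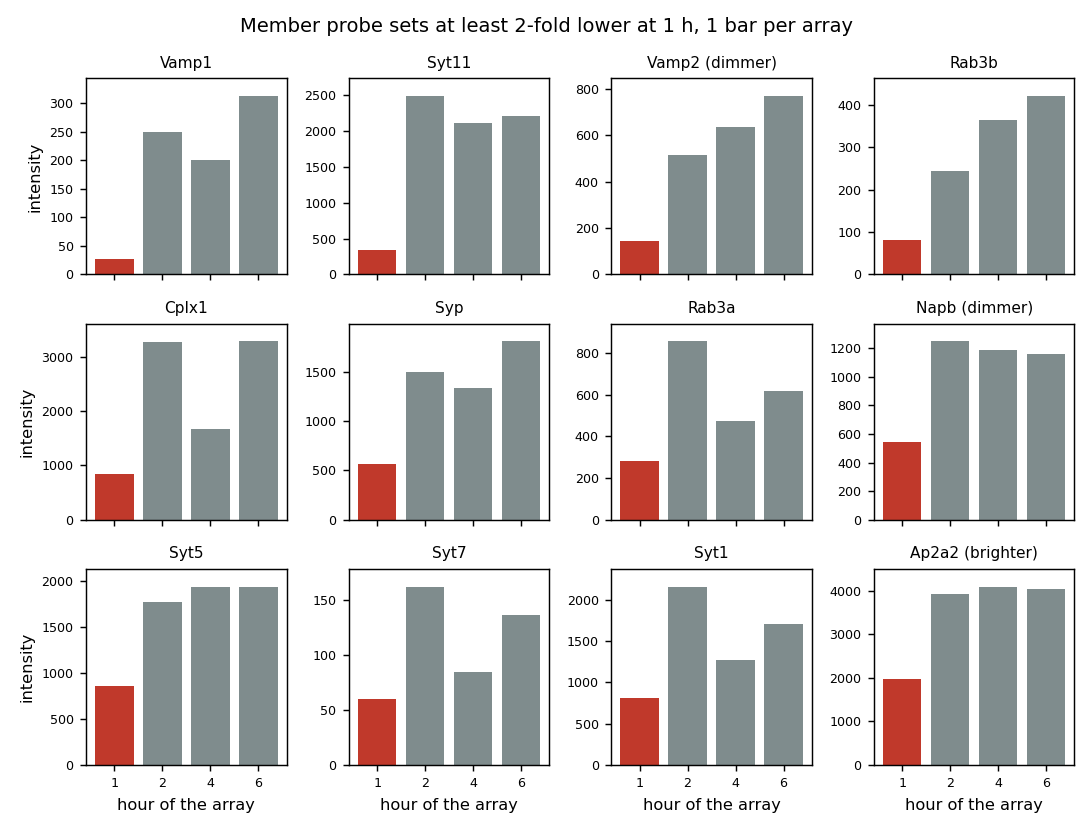
Bar charts of the 12 member probe sets at least 2-fold lower at 1 h, 1 bar per array, intensity on a linear axis from 0 and hour on the horizontal axis, the 1 h bar in red. In each panel the 1 h bar is the lowest; the 3 later bars are nearly equal for Syt11 (2112 to 2488) and Ap2a2 (3930.1 to 4099.8) and unequal for Cplx1 (1674.5 to 3295).

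The members low at 1 h were mostly those known mainly from neurons or neuroendocrine cells. A list of such genes held 24 of the 57 kept probe sets, of 20 genes, and 11 of these 24 were at least 2-fold lower at 1 h. Of the other 33 kept probe sets, 1 was, that of Ap2a2. Among the 11, Vamp1, Rab3b and Syt7 read under the filter's intensity of 101 at 1 h and were kept through later arrays. With the filter at the 60th percentile, which none of these passed, 8 mainly neuronal members and 1 other were at least 2-fold lower. The list left out Snap91, the coat protein of nerve terminals, so it counts among the 33, with a log2 difference of 0.11 at 1 h. The median log2 difference at 1 h was -0.66 for the mainly neuronal members, -0.04 for the others and 0.05 for all kept probe sets. The list was drawn up with earlier results of these data known, so it is no independent evidence of the direction, and the difference between the lists was not tested. The neuronal list also held 7 probe sets that were above the mean of the other arrays at 1 h, among them Snap25, Syt4 and the brighter probe sets of Dnm1 and Napb.

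**Figure D3:**
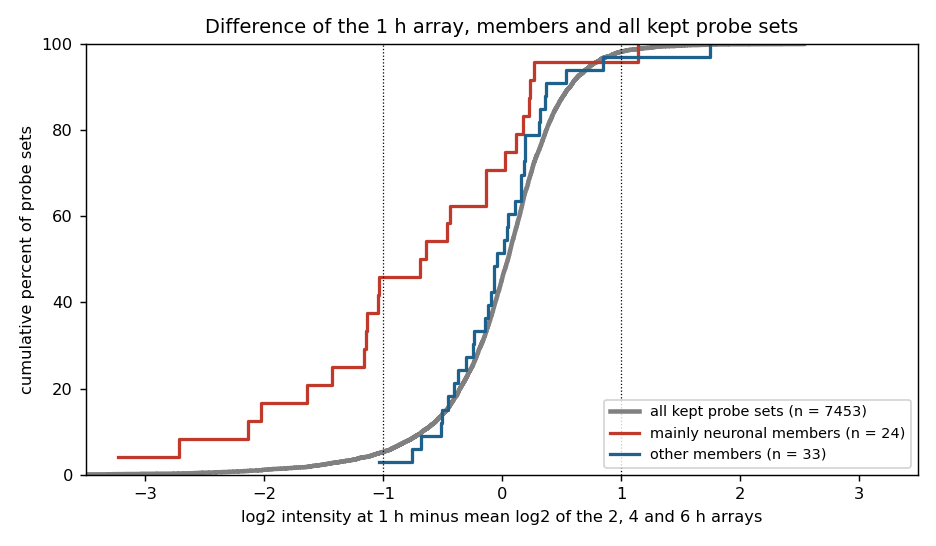
Cumulative percent of probe sets (vertical axis) against the log2 difference of the 1 h array from the mean of the 2, 4 and 6 h arrays (horizontal axis), with dotted lines at a 2-fold difference. The curve of the 24 mainly neuronal members lies to the left, with 45.8% of them at or below the lower line, while that of the 33 other members (3.03%) follows the grey curve of all 7453 kept probe sets (5.29%). The 45.8% include Vamp1, Rab3b and Syt7, which were kept through later arrays.

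At 1 h, 28 of the 57 kept members read below every other array and 16 above every other array, where 30.4% and 35.4% of all kept probe sets did. The share below was 49.1% of the members. At the other hours few members stood apart. At 2 h, 2 were at least 2-fold above the mean of the other arrays (Syt11 and Vamp1) and 0 below, against 1.81% and 1.58% of all kept probe sets. At 4 h, 1 was below (Ap2b1) and 0 above, against 1.4% and 1.42%. At 6 h, 3 were above (Vamp1, Rab3b and the dimmer probe set of Vamp2) and 0 below, against 0.912% and 1.85%. These comparisons share arrays: a low 1 h value also lowers the mean against which 2 h and 6 h are set, and without the 1 h array 1, 1 and 0 members stood 2-fold apart at 2, 4 and 6 h. Over the 2, 4 and 6 h arrays alone, 42 of the 57 kept members stayed within 1.5-fold, which is 73.7%, near the 74.7% of all kept probe sets. Their median SD over those 3 arrays was 0.15 log2 units and that of all kept probe sets 0.18.

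Some probe sets of the same gene disagreed on the 1 h array. The share of such pairs over all genes was not counted, so the counts here describe these pairs only. There were 16 member genes with several probe sets, and 9 had a pair that passed the filter. In 4 of the 9 pairs the 1 h differences lay at least 2-fold apart (Ap2m1, Napb, Syt3 and Vamp2), and in 4 they had opposite signs (Ap2m1, Dnm1, Napb and Vamp8), though for Dnm1 both were small, at 0.03 and -0.13 log2 units, and the first turned to -0.02 with arrays scaled to the same median and to -0.12 with quantile normalization. Vamp4 gave 0.18 and 0.19. For Vamp2 the pair gave -0.13 and -2.13, and for Napb 0.18 and -1.14. Of the kept member probe sets, 9 carry a name suffix. The kind that marks probes able to match related genes is on the dimmer ones of Napb and Syt3, both of Vamp8 and that of Dnm2. The kept probe set of Vamp1, the dimmer ones of Ap2m1 and Stxbp2 and the brighter one of Dnm1 carry other suffixes.

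**Figure D4:**
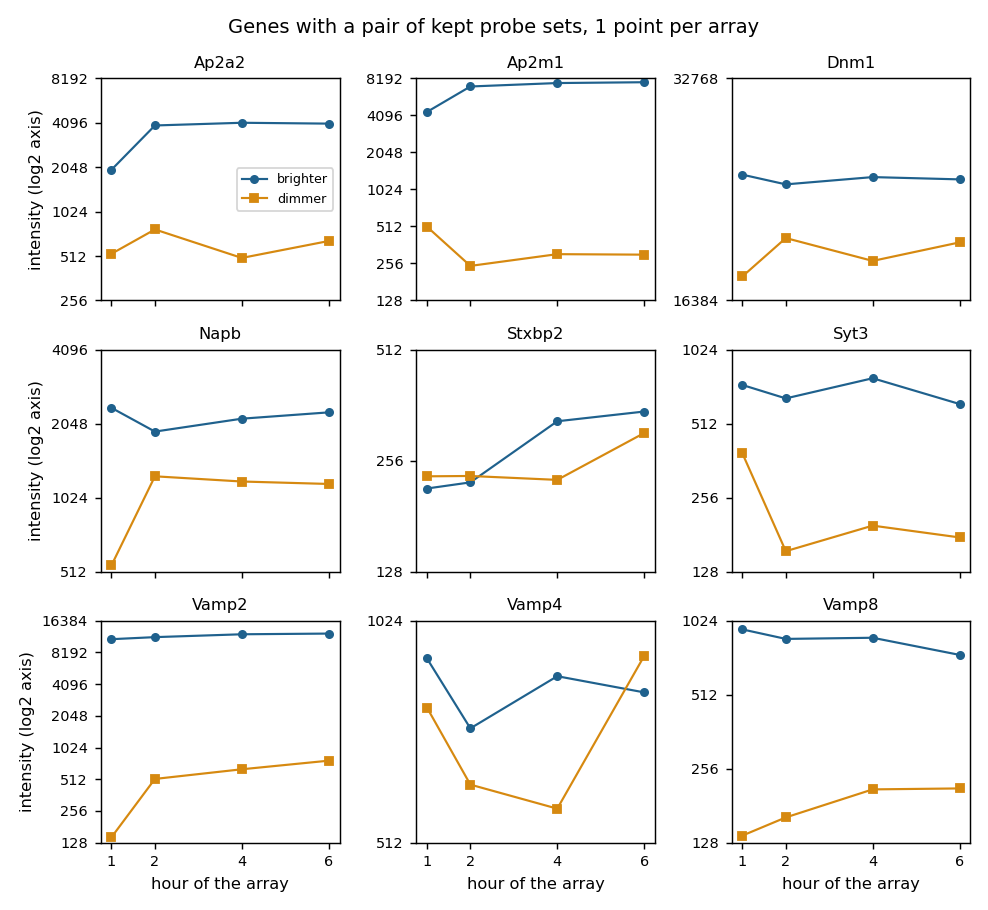
Intensity (log2 axis) against the hour of the array for the 9 member genes with a pair of kept probe sets, circles for the brighter and squares for the dimmer one, 1 point per array and no error bars. The dimmer probe sets of Vamp2 and Napb are low at 1 h (144 and 543) while the brighter ones are not, and in Ap2m1 the pair runs in opposite directions.

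A linear trend over the hours was then fitted to each kept probe set with limma. None of the 57 kept members passed at an adjusted p of 0.05, where 0.0134% of the 7453 kept probe sets passed with a positive slope (1 probe set, of Ttr, no member) and 0.0% with a negative one. The lowest adjusted p of a member was 0.874 in limma. At an unadjusted p under 0.05 there were 6 members, 10.5% against 4.40% of all kept probe sets, all 6 with positive slopes. In log2 units per hour with the SE, the slope of Rab3b was 0.42 ± 0.12, that of the dimmer probe set of Vamp2 0.40 ± 0.12 and that of Vamp1 0.54 ± 0.22, with Syp, Syt5 and Cplx2 at 0.25, 0.19 and 0.13. The largest negative slope was that of Ap2b1, at -0.30 ± 0.21.

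In all, 36 of the 57 slopes were positive, against 3469 of the 7453 over all kept probe sets. The median was 0.03 log2 units per hour, against -0.01 over all kept probe sets. Without the 1 h array, 34 of 57 were positive, against 3552 of 7453 over all, and the median was 0.01, against -0.00386 over all. The slope of Rab3b was then 0.20 and that of the dimmer Vamp2 probe set 0.14, while those of Syt11 (0.39 with all arrays), Cplx1 (0.25) and Rab3a (0.11) became -0.04, 0.00134 and -0.12.

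Other genes of the presynaptic terminal, from a list drawn up with the members, included vesicle proton pump subunits, clathrin, active zone proteins and synucleins. The list had probe sets for 38 of its 67 genes, and 45 probe sets of 37 genes were kept. At 1 h, 5 of the 45 were at least 2-fold lower and 0 higher, and the median difference was -0.15 log2 units. The 5 are 11.1% of the list, beside 5.29% lower, 1.8% higher and a median of 0.05 over all kept probe sets. Bin1 (amphiphysin II, of membrane curvature) read 542 at 1 h and 2265, 1877 and 2279 later on one probe set, and 3963, 4579, 4276 and 4354 on another. Atp6v0a1, a subunit of the proton pump that fills vesicles, read 284 and then 1205, 1006 and 1143. Lin7b, a scaffold, read 366.5, 892, 928 and 1012. Dnajc5, the chaperone of Snap25, read 206, 486, 463 and 550.5, and Doc2b, a calcium sensor of spontaneous release, 126, 405, 309.7 and 218.

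Higher at 1 h among these were Pclo, the active zone scaffold piccolo, at 3573 and then 2173, 1686 and 1809, and Scamp2 at 245, 144, 170.4 and 88.2 on one probe set, while another read 172, 348, 297 and 245. Sncb (beta-synuclein) read 3755.5 at 1 h and 2140.1, 2384 and 2752 later. Clta (clathrin light chain a) read 244.5, 268, 245.5 and 80.8 on one probe set, and 1975, 2984, 2884 and 2984 on another. Of other genes in the list, Atp6v1a read 13047 ± 524 (SD, n = 4), Atp6v1b2 11825 ± 1086, another probe set of Atp6v1a 7450 ± 372. The dimmest probe set of Atp6v1a fell with the hours, at 2746, 2366, 2030 and 1575. A dimmer one of Atp6v1b2 read 464, 481.5, 562 and 575, lowest at 1 h, where the brighter one was highest (13350). Rabac1 (PRA1, a Rab3 partner) was lowest at 1 h, at 5060.5 and then 6733, 6994 and 7463. In limma 0 of the 45 passed the trend test, and 5 (11.1%, against 4.40% of all kept probe sets) had an unadjusted p under 0.05, 2 of them with a positive slope.

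To show what the genes low at 1 h carry in front of their start sites, the 250 bases upstream of the RefSeq start are printed for the 4 lowest that the RefSeq promoter table of GRCm38.p6 holds, and for Dnm1, whose brighter probe set varied between the arrays by 1.03-fold. Each runs 5' to 3' on the gene's strand, and capitals mark the GC box GGGCGG or its reverse complement CCGCCC, the core of the site that Sp1-type factors bind.
Vamp1, chr6:125215331-125215580, plus strand: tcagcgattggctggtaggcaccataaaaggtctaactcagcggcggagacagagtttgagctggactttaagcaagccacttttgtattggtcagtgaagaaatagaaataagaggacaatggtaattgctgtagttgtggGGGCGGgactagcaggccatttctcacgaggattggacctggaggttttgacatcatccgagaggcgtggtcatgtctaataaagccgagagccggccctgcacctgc
Syt11, chr3:88772600-88772849, minus strand: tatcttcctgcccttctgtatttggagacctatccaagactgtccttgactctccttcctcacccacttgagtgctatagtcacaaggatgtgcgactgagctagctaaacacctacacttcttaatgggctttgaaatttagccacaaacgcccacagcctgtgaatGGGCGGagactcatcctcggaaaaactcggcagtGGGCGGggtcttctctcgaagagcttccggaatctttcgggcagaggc
Rab3b, chr4:108878820-108879069, plus strand: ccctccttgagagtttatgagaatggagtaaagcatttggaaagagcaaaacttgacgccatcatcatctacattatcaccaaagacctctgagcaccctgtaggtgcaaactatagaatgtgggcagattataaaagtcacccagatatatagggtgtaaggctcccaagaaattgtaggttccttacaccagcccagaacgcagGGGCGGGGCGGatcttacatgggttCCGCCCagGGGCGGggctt
Cplx1, chr5:108550028-108550277, minus strand: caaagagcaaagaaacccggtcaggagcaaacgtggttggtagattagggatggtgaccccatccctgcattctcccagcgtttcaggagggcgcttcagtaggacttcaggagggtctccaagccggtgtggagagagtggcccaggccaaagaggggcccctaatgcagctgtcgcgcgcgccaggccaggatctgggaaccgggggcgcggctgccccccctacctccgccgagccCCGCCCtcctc
Dnm1, chr2:32353330-32353579, minus strand: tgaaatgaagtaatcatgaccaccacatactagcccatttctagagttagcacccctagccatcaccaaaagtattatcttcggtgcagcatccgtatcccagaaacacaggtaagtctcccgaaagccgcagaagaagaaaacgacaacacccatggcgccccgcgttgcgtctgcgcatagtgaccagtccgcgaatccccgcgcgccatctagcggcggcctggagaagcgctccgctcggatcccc

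The first 4 windows hold a GC box and the window of Dnm1 does not. Dnm1 is a single example, not picked by a rule, and does not stand for the other members. The table matched 48 of the 57 member genes, with 61 windows, of which 37 (60.7%) held the GC box on either strand, against 42.6% of 21263 windows of protein-coding genes and 32.7% of all 32851 windows. Among the 12 genes with a probe set at least 2-fold lower at 1 h, 9 were matched, and 8 of their 11 windows (72.7%) held it, beside 29 of the 50 windows of the other members (58.0%). The cyclic AMP response element TGACGTCA was in 2 of the 61 windows (3.28%) and in 1.92% of protein-coding windows, and in 0 of the 11. The shorter TGACG, which overlaps it, was in 16 (26.2%) against 20.2%, and the TATA motif TATAAA in 3 (4.92%) against 11.6%. The left part of the RE1 site, TTCAGCACC, which the neuronal repressor REST binds, was in 0 of the 61 and in 0.329% of protein-coding windows. These are matches of letters and were not tested.

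The 17 member probe sets that did not pass the filter were dim. They included every probe set of 9 genes: Ap2s1, Rab3d, Syngr4, Syt6, Syt8, Syt9, Syt10, Unc13b and Vamp5. The other dim ones were further probe sets of Dnm2, Rab3a, Stx3, Syt2, Vamp1 and Vamp7. In 7 of the 17 at least 1 array lay under the floor of 16.4, as in Syt10 (13.3, 34.4, 77.2 and 9.3) and Syt9 (32.3, 12.4, 8.1 and 24.5). The dim Syt2 probe set read 32, 131, 124 and 66.5, lowest at 1 h, against 397, 347, 285 and 390.4 on the kept one. Syngr4 read 70.8, 77.6, 71.6 and 85.8. At such intensities the arrays cannot be ordered with any precision.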

How the data were processed

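The authors deposited 1 table of linear intensity values, a column per array and 12488 rows, 66 of them controls. The software and scaling behind it are not given in the sources used here. The 2%-trimmed mean over all rows was 500.3 in each array, so a difference in total RNA does not show. The files give no read depth, and no column was without a sample. Symbols came from the array annotation, and updating them through Entrez identifiers changed 0 member symbols.

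Values under 16.4 were set to it, log2 was taken, and probe sets with a mean log2 value of at least 6.66 were kept (7453 of 12422). The trend used limma 3.58.1 in R 4.3.3 across all genes (lmFit, eBayes with a trend on intensity, 2 residual degrees of freedom, two-sided, Benjamini-Hochberg at 0.05), and was tested on simulated data. A difference at an hour is its log2 value minus the mean log2 of the other arrays, counted at 2-fold, with no test. Folds of 1 h against later arrays come from that difference.

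The members, roles, lists, comparisons and settings were chosen with earlier results of these data known. Values in all arrays are given, in each role, for the 3 largest means, the 3 largest differences at 1 h, and genes with several kept probe sets; of the other presynaptic list, for the 4 largest means and the 4 largest differences in each direction. Other member values, the fifth lower gene and the further probe sets of that list, and the placing of Snap91 with endocytosis were chosen after the values were seen. Alternatives were another filter, scaling, floor, choice of probe sets, form of the trend, and leaving out each array.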

Additional observations from a re-analysis of the deposited data

Results flagged for a closer look

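Within the 4 arrays, 8 of 39 member probe sets examined (20.5%) had 1 array whose gap to the nearest of the others took up more of the whole range than Dixon's 95% limit allows; chance flags about 1 in 20 groups, and 8.63% of all kept probe sets met the same limit. The 39 were chosen in part for their differences at 1 h, so these shares are no test and nothing is read from setting them side by side. In 6 of the 8 the 1 h array was the low one: Syt11 at 345, Syt5 at 852, the dimmer probe set of Napb at 543, Snap47 at 4258, and the brighter probe sets of Ap2a2 at 1969 and Ap2m1 at 4371. Stxbp3 was set apart by a high 1 h array, at 369, and the dimmer probe set of Stxbp2 by a high 6 h array, at 304. The Gapdh 3' to 5' ratio of 4.88 belongs to that same 1 h array, and its part in these values was not tested.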

How the results depend on the processing

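The count of 12 members lower at 1 h stayed between 9 and 15 over the alternatives, and that of the mainly neuronal ones between 8 and 14 (11 as reported), each within 1.5 times its main value. No member passed the trend test under any of the settings tried (lowest limma adjusted p of a member 0.209 to 0.9997). Smaller counts moved. With no filter, members at least 2-fold higher at 1 h numbered 4, and those apart at 2, 4 and 6 h 5, 6 and 6. Under a stricter filter, the 60th percentile, they numbered 0, 1, 0 and 1. With log2 of intensity + 32, those apart at 2 and 6 h were 1 and 1. With suffixed probe sets left out, 1 was higher at 1 h and 1 apart at 2 h, and with 1 probe set a gene 1 was higher at 1 h. Leaving out each array in turn, members apart numbered 1 to 6 at 2 h, 1 to 5 at 4 h and 0 to 6 at 6 h, the lowest without the 1 h array. For 39 single probe sets, 294 of 304 alternative values of the 1 h difference moved by less than the SD of the later arrays, 3 changed sign (Dnm1 under both scalings, Stxbp2 without the 6 h array), and 102 of 107 stayed past 2-fold where the main value was. Depth is unknown for these values, and with 1 array per hour no difference at an hour can be set against replicate error. No paired analysis was possible because there is 1 group.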
